A study of Rattus norvegicus with 4 samples.

Results

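Potassium channel genes were compared between tissue labelled eye and tissue labelled retina from Long Evans rats of wild-type genotype. Every gene whose symbol starts with Kcn was taken, which gave 76 genes of the 14485 gene names with a value, and none of them had a missing value. By symbol they fell into 34 voltage-gated pore subunits, 14 inward rectifiers, 10 two-pore channels, 4 calcium-activated channels (with the related sodium-activated Kcnt1) and 14 auxiliary subunits. Other potassium channel genes were not analysed here.

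RNA was sequenced from each tissue, and each library was made from the pooled RNA of 5 rats. Age, sex and treatment of the rats are not given in the labels. The labels list 2 technical replicates for each tissue, but 1 column of values was analysed per tissue, called its library here, and whether that column joins both replicates is not known. The difference between the libraries therefore has no replicate check and no p-value. One field of the labels describes all 4 samples as retina mRNA, whereas their titles and tissue labels set eye apart from retina.

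Potassium channels let potassium leave or enter a cell and so set its resting voltage and the speed at which it returns to rest. Voltage-gated channels are tetramers that open on depolarization, inward rectifiers hold the resting voltage and carry potassium across glia and epithelia, and two-pore channels carry background leak currents. Calcium-activated channels follow intracellular calcium, and auxiliary subunits change the gating or the transport of the pore. In the retina, the silent subunit Kcnv2 takes part in the sustained current of the photoreceptor inner segment. The inward rectifier Kcnj10 carries potassium through Mueller glia, and Kcnj13 carries it across the apical membrane of the retinal pigment epithelium.

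Values are taken as RPKM, reads scaled to gene model length and library total, a unit inferred from the values, so levels can be compared between genes. Whole reads could be recovered behind the values of all 76 genes, with library totals of 28071917 reads for eye and 51944762 for retina. A gene of equal level thus had 1.85 times as many reads in retina. A fold in the text is the ratio of the deposited values, and its interval is an exact 95% (Clopper-Pearson) interval from the recovered reads. It covers counting error only, since reads amplified by PCR are not independent molecules. A gene was called higher or lower in the eye library at a fold of at least 2 after 0.1 was added to each value, if its value reached 1 in either library.

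The promoters of 3 genes that the results turn on are given first. Kcnj14 had the highest value of all members in both libraries, Kcnv2 was the highest of the silent subunits, and Kcnj13 was the most abundant member called higher in eye. Each sequence is the 250 bases before the transcript start in RefSeq, rat build GRCr8, 5′ to 3′ on the gene's strand. Capitals mark matches on either strand to the 6 motifs searched.
Kcnj14 (chr1:105437259-105437508, minus strand): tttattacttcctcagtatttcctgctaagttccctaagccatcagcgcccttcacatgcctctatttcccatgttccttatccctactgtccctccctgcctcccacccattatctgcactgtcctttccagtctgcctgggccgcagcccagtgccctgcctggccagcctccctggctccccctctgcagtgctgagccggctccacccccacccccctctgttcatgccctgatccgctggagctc
Kcnv2 (chr1:234412924-234413173, plus strand): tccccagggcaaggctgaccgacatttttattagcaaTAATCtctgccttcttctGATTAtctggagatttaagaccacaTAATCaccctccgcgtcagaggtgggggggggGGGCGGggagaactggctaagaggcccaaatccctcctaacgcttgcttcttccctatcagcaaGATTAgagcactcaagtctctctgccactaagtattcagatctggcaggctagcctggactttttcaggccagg
Kcnj13 (chr9:95518987-95519236, minus strand): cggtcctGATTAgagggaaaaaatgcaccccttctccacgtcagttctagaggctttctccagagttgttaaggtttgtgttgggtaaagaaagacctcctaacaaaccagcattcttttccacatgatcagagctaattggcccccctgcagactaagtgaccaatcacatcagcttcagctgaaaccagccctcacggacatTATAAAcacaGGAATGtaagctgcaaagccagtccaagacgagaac

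The motifs were TAATCC, the core bound by the photoreceptor factors CRX and OTX2, its shorter part TAATC, which every TAATCC match also holds, the E-box CACGTG, the TEAD core CATTCC, the GC box GGGCGG and the TATA box TATAAA, each searched on both strands. Promoters were found for 51 of the 76 members among 27457 in the table. The Kcnv2 promoter held 4 matches to TAATC and 1 GC box. At least 4 matches to TAATC were held by 0.0546% of all promoters, and at least 1 by 20.2%. TAATC was added to the search, and the count of at least 4 set, after this promoter had been seen. The Kcnj13 promoter held the TATA motif 46 bases before the start, the TEAD core 36 bases before it and 1 match to TAATC, and the Kcnj14 promoter held none of the 6. The TATA box was in 13.1% of all promoters and in 2 of the 51, and the GC box in 32.4% of all and in 28 of the 51. TAATCC was in 6.33% of all promoters, in 1 of 11 members lower in eye (Kcnj9) and in 0 of 6 members higher in eye. CATTCC was in 11.8% of all promoters and in 7 of the 51 (13.7%), near that share. It was in 3 of 11 members lower in eye, in 3 of 6 members higher and in 1 of 27 not called. CACGTG was in 5.79% of all promoters and in 1 member, Kcne4. A match is a run of letters and not a shown binding site.

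Markers of cells outside the neural retina were higher in the eye library. Of the marker lists, all 7 lens, 8 skeletal muscle, 4 smooth muscle, 4 corneal epithelium, 6 stroma and 6 myelin genes with a value were higher in eye, as were 5 of 5 tested pigment epithelium, 6 of 6 melanocyte and 3 of 5 endothelium genes. No listed marker was at 0 in either library. The defining rod and cone genes were present in both libraries, at 62.3 to 3959 RPKM for 7 rod genes in eye and at 145 to 7967 in retina. Of these, 4 rod genes were lower in eye and 0 higher, and of 6 cone genes 4 were lower and 0 higher. The median log2 fold was -1.01 for the rod list, -1.21 for the cone list, -0.82 for the bipolar cell list, -0.73 for the ganglion cell list and -0.22 for the Mueller glia list. In bulk tissue, fewer cells of a type and less RNA per cell cannot be told apart.

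Most potassium channel genes had their higher value in retina, and the share of them called higher in eye was not far from that of all genes. Values reached 1 in both libraries for 56 of the 76 members, in eye alone for 6 and in retina alone for 5. Of the 67 members thus tested, 18 were lower in the eye library, where 7.95% of all genes tested were called lower. Another 9 members were higher in eye, where 17.8% of all genes tested were called higher, and 40 were not called. In percent, 26.9% of the tested members were lower and 13.4% higher. The value was lower in eye, by any size, for 52 of 67 members and for 50.7% of all genes tested. A member under the minimum in retina and above it in eye has to be higher there: all 6 of these were called higher, and 2 of the 5 tested through retina alone were called lower. Without any minimum, 11 of the 76 were higher (18.2% of all genes) and 18 lower (7.74% of all genes).

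Tested members had a median log2 fold of -0.63, against -0.01 for all genes tested. The 18 lower members lay between 2.00-fold and 3.57-fold lower. The 9 higher members reached 70.8-fold higher, but 6 of them passed the minimum through eye alone, which favours a large fold, and Kcnj13, at 5.20-fold, was the highest of the 3 with at least 1 RPKM in both libraries. At least 4-fold higher were 7 members, or 10.4% of those tested, near the 9.07% of all genes tested that passed that fold. At least 4-fold lower were 0 (0.0905% of all genes). The lower members were abundant, with a median of 19.5 RPKM in retina. The higher members were mostly rare, with a median of 1.65 RPKM in eye, and Kcnj13 was the one of them above 10.

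**Figure D1:**
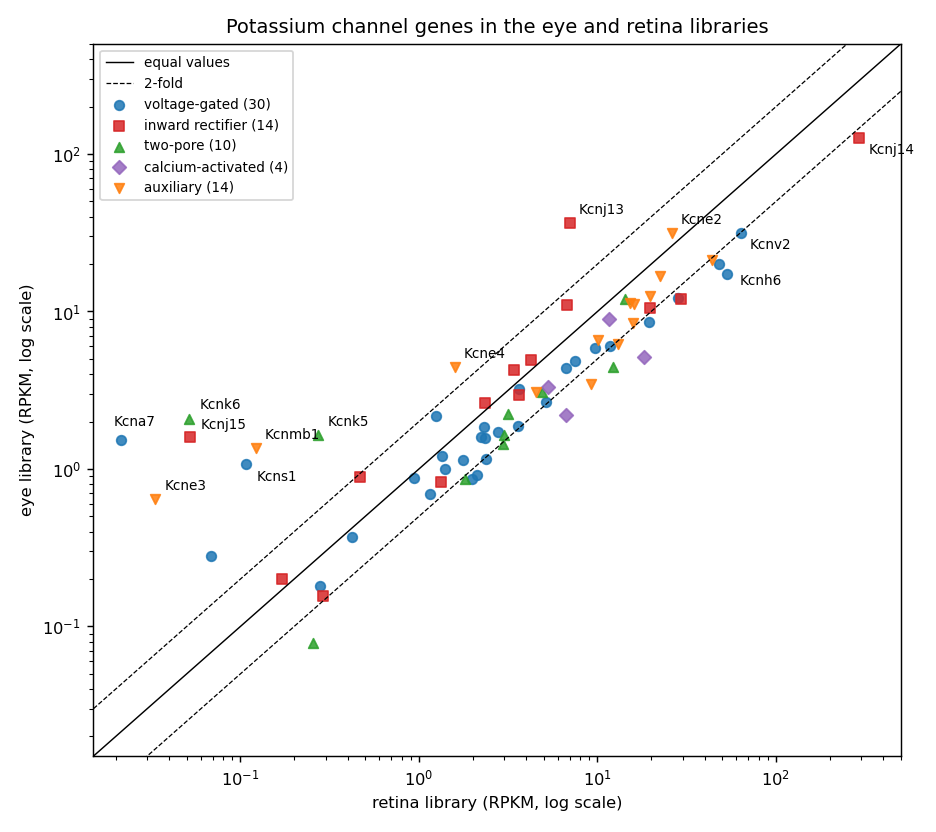
Each point is 1 of 72 potassium channel genes, with its value in the eye library (vertical, RPKM, log scale) against its value in the retina library (horizontal, RPKM, log scale), by class. Kcnj14 is the highest at 127 in eye and 293 in retina. Of the 34 members of at least 5 RPKM in either library, 16 were called lower, as were 8.19% of all such genes. Kcnj13 lies above the upper 2-fold line, and 6 members under 1 RPKM in retina and above 1 in eye stand far above that line.

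The levels were concentrated in few genes. The 5 highest members held 46.8% of the summed value of all 76 in eye and 54.7% in retina. Among the 10 highest members of each library, 8 were the same genes, among them Kcna5, Kcnab2, Kcne2, Kcnh6, Kcnip1, Kcnj14 and Kcnv2. The eye list was completed by Kcnj13 and Kcnmb4, and the retina list by Kcnh2 and Kcnj9. At least 10 RPKM was reached by 17 members in eye and 24 in retina. All 76 together made up 0.118% of everything measured in eye, in summed RPKM, and 0.336% in retina, while 11 crystallin genes made up 34.0% in eye and 0.559% in retina.

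Among the voltage-gated subunits, the photoreceptor gene Kcnv2 was abundant in both libraries. Kcnv2, whose loss in humans causes cone dystrophy with supernormal rod response, had 31.7 RPKM in eye and 63.5 in retina. It was 2.00-fold lower (interval 1.94 to 2.07), just inside the threshold, and is not called with 1 added to each value or with the median of ratios. Kcnb2, a delayed rectifier, had only 1.16 RPKM in eye and 2.38 in retina.

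The other abundant voltage-gated genes were also lower in eye. Kcna5, a fast-activating delayed rectifier known from the human atrium, had 20.03 RPKM in eye and 48.3 in retina, 2.41-fold lower (interval 2.25 to 2.58). Kcnh6 and Kcnh2 encode ether-a-go-go-related channels, and Kcnh2 is the one that repolarizes the heart. Kcnh6 had 17.3 RPKM in eye and 53.4 in retina, 3.08-fold lower (interval 2.92 to 3.26). Kcnh2 had 12.1 RPKM in eye and 28.1 in retina, 2.32-fold lower (interval 2.19 to 2.47). In this subfamily Kcnh1, Kcnh5 and Kcnh7 lay between 1.13-fold and 1.92-fold lower and were not called.

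Of the Shaw genes, which give neurons fast repolarization, Kcnc1 had 8.53 RPKM in eye and 19.5 in retina, 2.29-fold lower (interval 2.13 to 2.46), whereas Kcnc2, at 4.86 and 7.44, was not called. Kcnq3, a subunit of the neuronal M-current, had 0.693 RPKM in eye and 1.16 in retina and was not called.

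The remaining Shaker and the Shal genes kept closer values. Kcna1, Kcna2, Kcna3, Kcna4 and Kcna6, among which Kcna1 and Kcna2 are known from axons, lay between 1.39-fold and 1.94-fold lower in eye, and none was called. Kcnd1, Kcnd2 and Kcnd3, the A-type channels, lay between 1.49-fold and 1.94-fold lower. Among the silent subunits, which do not conduct alone, Kcnf1 (0.919 RPKM in eye and 2.10 in retina) and Kcns2 (0.865 and 1.99) were lower, at 2.29-fold (interval 1.75 to 3.02) and 2.30-fold (interval 1.62 to 3.33). Neither of these, nor Kcns1 among the higher genes, is called with 1 added to each value. Kcng4 and Kcng2 were 1.11-fold and 1.25-fold lower, with intervals that span 1. Kcng1, Kcng3, Kcnh8 and Kcnq1 did not reach 1 RPKM in either library.

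A few voltage-gated genes went the other way. Kcna7, known from skeletal and heart muscle, had 1.52 RPKM in eye and 0.0214 in retina, from 153 and 4 recovered reads, 70.8-fold higher (interval 27.1 to 263). Kcns1, a silent subunit known from sensory neurons, had 1.07 RPKM in eye and 0.107 in retina, 9.99-fold higher (interval 5.72 to 18.7). Kcns3 had 2.16 RPKM in eye and 1.25 in retina, short of the threshold at 1.73-fold. In all, 10 of 30 tested voltage-gated genes were lower and 3 higher (33.3% and 10%, against 7.95% and 17.8% of all genes tested), with a median log2 fold of -0.69.

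The skeletal and smooth muscle lists moved with these genes: all 8 skeletal muscle genes were higher in eye, with summed values of 3125 RPKM in eye and 13.2 in retina, and all 4 smooth muscle genes were higher, with 181 and 11.7. All tested genes of the lens, corneal epithelium, stroma, melanocyte, pigment epithelium and myelin lists were higher in eye too. The part of any list in the values of Kcna7 and the muscle-linked Kcnj12 and Kcnmb1 was not tested.

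**Figure D2:**
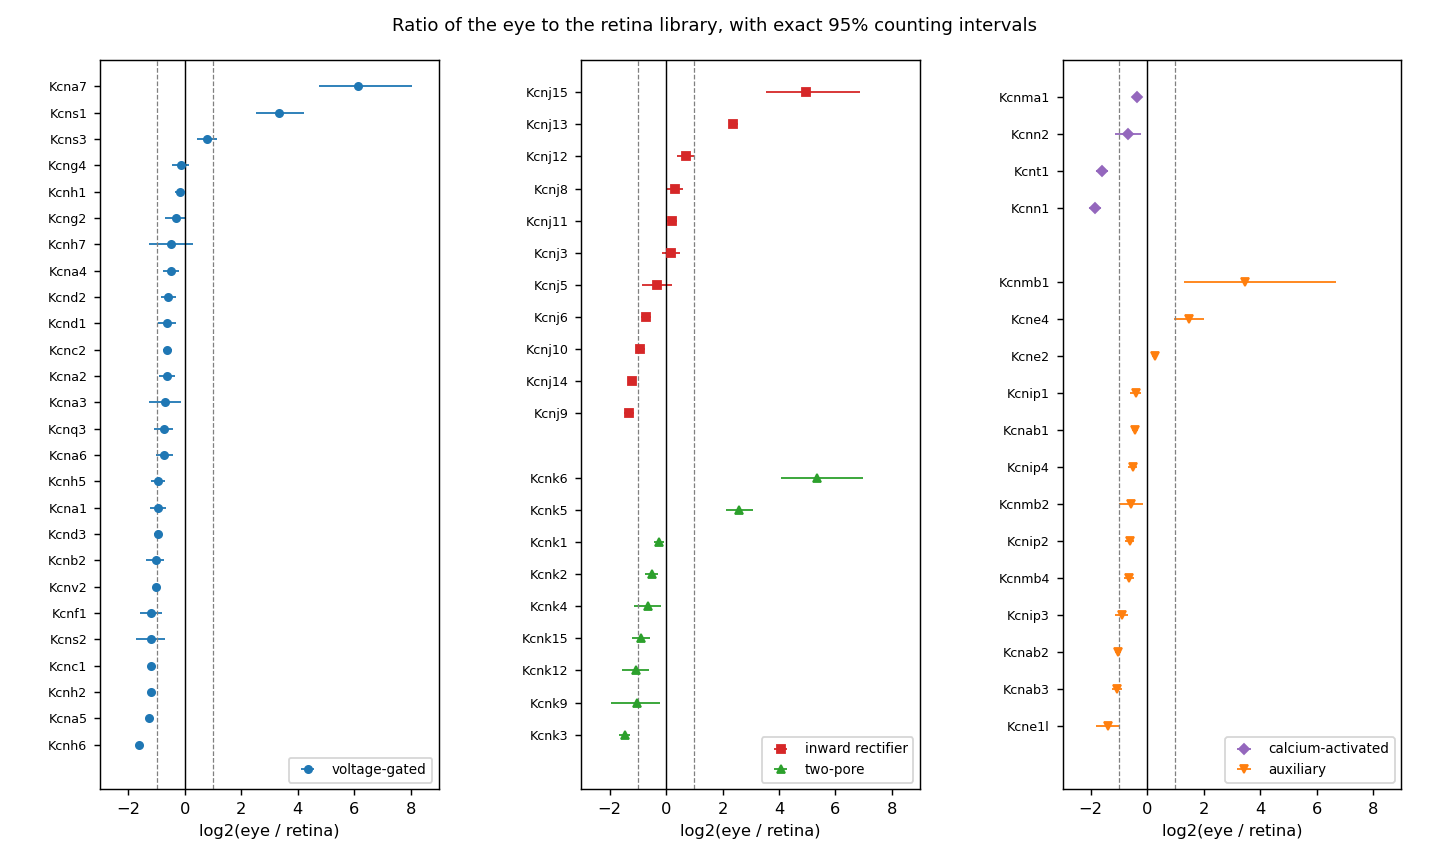
Ratio of the eye to the retina value (log2, horizontal) of 63 tested members by class, as points with exact 95% counting intervals; dashed lines stand at 2-fold. The lower members gather between the dashed line and a ratio of 3.57-fold, while Kcna7, Kcnj15, Kcnk6 and Kcnmb1 lie far to the right with wide intervals. For each of these 4 the interval rests on 2 to 5 recovered retina reads, the smallest whole numbers that fit.

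Of 11 inward rectifiers tested, 2 were lower and 2 higher (18.2% each, against 7.95% and 17.8% of all genes), so the higher share was near that of all genes. Their median log2 fold of 0.16 was the one class median above that of all genes. It was below 0 with both scalings to equal summed values (-0.45 for all genes, -0.21 without the lens list). Its distance above the median of all genes was 0.17 as reported and 0.19 and 0.18 with these scalings. A scaling moves both medians together, so this distance could hardly change and is no check. The class median was the value of Kcnj3, whose interval spans 1, and 6 of the 11 had their higher value in eye and 5 in retina.

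Kcnj14, an inward rectifier of the Kir2 subfamily, had 127 RPKM in eye and 293 in retina, from 9344 and 39788 recovered reads. It was 2.30-fold lower in eye (interval 2.25 to 2.35). Its value was above that of 97.5% of genes in eye and 99.4% in retina, and it held 59.0% of the summed value of its class in eye and 78.7% in retina. Kcnj9, a G-protein-gated channel subunit, had 11.9 RPKM in eye and 29.5 in retina, 2.47-fold lower (interval 2.20 to 2.78). Kcnj9 overlaps Igsf8 in the reference table, and Igsf8 was itself 1.99-fold lower.

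The other G-protein-gated subunits were rarer and closer: Kcnj3, Kcnj5 and Kcnj6 had 0.821 to 2.94 RPKM in eye and 1.33 to 3.65 in retina, and none was called. Kcnj10, the potassium channel of Mueller glia, had 10.5 RPKM in eye and 19.8 in retina, 1.89-fold lower (interval 1.69 to 2.11) and not called. Its partner in the Mueller end-foot, the water channel gene Aqp4, had 16.1 RPKM in eye and 18.8 in retina. Of the 5 Mueller glia genes with a value none was called: Slc1a3, Dkk3, Aqp4 and Rlbp1 were 1.10-fold to 1.43-fold lower in eye, and Clu, with 453 RPKM in eye and 322 in retina, was 1.41-fold higher.

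Kcnj13, the channel of the pigment epithelium, had 36.5 RPKM in eye and 7.01 in retina. It was 5.20-fold higher in eye (interval 4.67 to 5.80), and its share of the class was 16.9% in eye and 1.89% in retina. The order of both epithelial and glial channels thus differed: Kcnj13 stood 3.49 times above Kcnj10 in eye, and Kcnj10 2.82 times above Kcnj13 in retina. The pigment epithelium genes Rpe65 (58.97 RPKM in eye and 15.96 in retina) and Ttr (932 and 211) were 3.69-fold and 4.42-fold higher. With Rpe65 at 15.96 RPKM, the retina library was not free of pigment epithelium transcripts. The summed value of the 6 listed genes of that layer was 1288 RPKM in eye and 306 in retina, most of it from Ttr. Best1, also among the 6, went the other way at 0.355 RPKM in eye and 0.470 in retina, under the minimum. The part of these genes in the value of Kcnj13 was not tested. In the reference table Kcnj13 lies within Gigyf2, and how reads of overlapping genes were counted is not known.

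Kcnj15, a relative of Kcnj10, had 1.61 RPKM in eye and 0.0518 in retina, from 67 and 4 recovered reads. It was 31.0-fold higher in eye (interval 11.6 to 117). The strong inward rectifier Kcnj12, known from muscle, had 10.97 RPKM in eye and 6.78 in retina, short of the threshold at 1.62-fold. The ATP-sensitive pores had similar values in both: Kcnj11 had 4.94 RPKM in eye and 4.23 in retina and Kcnj8 had 4.27 and 3.41, and the small differences of these and of Kcnj3 changed sign with both scalings to equal summed values. Kcnj1, Kcnj2 and Kcnj4 did not reach 1 RPKM in either library.

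The two-pore channels were expressed at low levels. The class summed to 29.4 RPKM in eye and 42.8 in retina, and 2 of 9 tested members were higher in eye and 1 lower (22.2% and 11.1%), near the 17.8% and 7.95% of all genes tested. Kcnk1, a weakly conducting leak channel, was the highest, at 11.9 RPKM in eye and 14.3 in retina, and was not called. Kcnk3, an acid-sensitive leak channel, had 4.43 RPKM in eye and 12.2 in retina, 2.75-fold lower (interval 2.40 to 3.16), so that its share of the class was 15.1% in eye and 28.5% in retina. Its relative Kcnk9 had 1.44 RPKM in eye and 2.96 in retina. Kcnk12 had 0.867 RPKM in eye and 1.81 in retina, and Kcnk15 had 1.64 and 3.01. The mechanosensitive Kcnk2, with 2.22 RPKM in eye and 3.15 in retina, and Kcnk4, with 3.10 and 4.87, were not called either.

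Both two-pore genes called higher in eye passed the minimum of 1 RPKM through eye alone, which favours a large fold. Kcnk6, a relative of Kcnk1, had 2.06 RPKM in eye and 0.0511 in retina, from 109 and 5 recovered reads, 40.3-fold higher (interval 16.8 to 127). In the reference table Kcnk6 overlaps the protein-coding LOC103689966, and how reads of overlapping genes were counted is not known. Kcnk5, an alkaline-activated channel known from kidney tubule epithelium, had 1.65 RPKM in eye and 0.272 in retina, 6.04-fold higher (interval 4.36 to 8.50). Kcnk1 was thus 7.26 times as high as Kcnk5 in eye and 52.4 times in retina. The corneal epithelium list moved the same way, with summed values of 4400 RPKM in eye and 4.61 in retina over 4 genes. So did all tested genes of the lens, stroma, skeletal and smooth muscle, melanocyte, pigment epithelium and myelin lists. The part of any list in the values of Kcnk6 and Kcnk5 was not tested. Kcnk13 was under 1 RPKM in both libraries, with 0.0785 in eye, from 1 recovered read, and 0.254 in retina.

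Only 4 calcium-activated or related genes were listed, and all had their higher value in retina. Kcnn1, a small-conductance channel, had 5.11 RPKM in eye and 18.3 in retina. At 3.57-fold lower (interval 3.10 to 4.14) it had the lowest fold of all tested potassium channel genes, and 0.204% of all genes tested had a lower one. Kcnt1, the sodium-activated channel, had 2.19 RPKM in eye and 6.63 in retina, 3.03-fold lower (interval 2.63 to 3.51). Kcnma1, the large-conductance channel, had 9.02 RPKM in eye and 11.7 in retina, and Kcnn2 had 3.31 and 5.27, and neither was called. The order of the levels thus differed, with Kcnma1 at 46.0% of the class in eye and 27.9% in retina, and Kcnn1 at 26.0% and 43.7%.

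**Figure D3:**
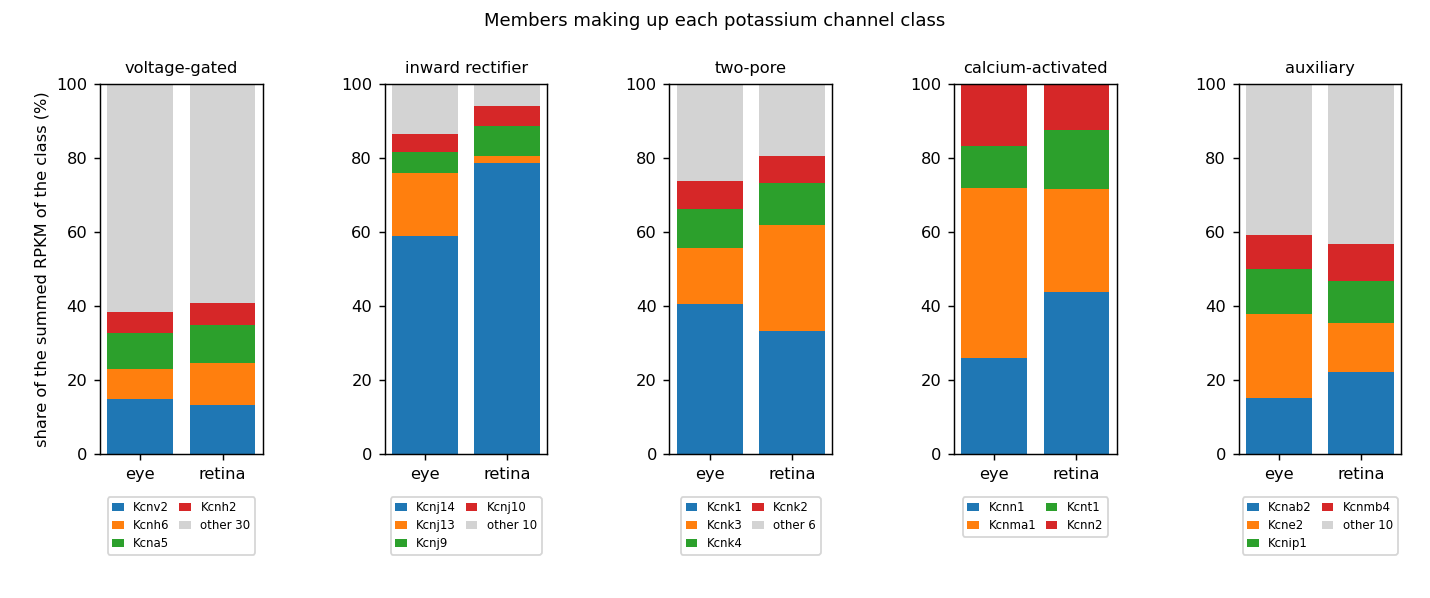
Share of each class's summed RPKM (vertical, percent) held by 4 of its highest members in the eye and retina libraries, with the remaining members in grey. Kcnj14 holds most of the inward rectifier value in both libraries, and Kcnj13, Kcnma1 and Kcne2 hold larger shares in eye than in retina.

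Auxiliary subunits were led by different genes in each library. Kcnab2, a cytoplasmic beta subunit of Shaker channels, was the highest in retina, with 21.1 RPKM in eye and 43.8 in retina. This was 2.07-fold lower (interval 1.93 to 2.23). Its locus overlaps Nphp4 in the reference table, and Nphp4 was 3.42-fold lower. Kcnab3 was also lower, with 6.21 RPKM in eye and 12.96 in retina, a fold of 2.09 (interval 1.86 to 2.35), while Kcnab1, at 11.3 and 15.3, was not called. Kcnab3 is not called with 1 added to each value.

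Kcne2, a single-span subunit known from stomach, heart and choroid plexus, was the highest in eye. It had 31.4 RPKM in eye and 26.1 in retina, 1.204-fold higher (interval 1.13 to 1.29), a difference that was not called and changed sign with both scalings to equal summed values. Its relative Kcne4, which damps voltage-gated channels, had 4.42 RPKM in eye and 1.59 in retina, 2.78-fold higher (interval 1.93 to 4.02), and is not called with equal summed values. Kcne1l, listed as Kcne5 in the reference table, had 3.47 RPKM in eye and 9.16 in retina, 2.64-fold lower (interval 1.99 to 3.54). Kcne3, an epithelial partner of Kcnq1, was under the minimum, at 0.646 RPKM in eye and 0.0332 in retina from 21 and 2 recovered reads, and the ratio was 19.4 (interval 4.75 to 171). Kcnq1 itself had 0.278 RPKM in eye and 0.0683 in retina. The KCNE subfamily thus spanned both directions.

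The beta subunits of the large-conductance channel also differed among themselves. Kcnmb1, known from smooth muscle, had 1.35 RPKM in eye and 0.121 in retina, from 12 and 2 recovered reads, and the ratio was 11.1 (interval 2.47 to 102). Kcnmb4, known from neurons, had 12.5 RPKM in eye and 19.7 in retina and was not called, nor was Kcnmb2 at 3.07 and 4.54. The pore gene Kcnma1 was 6.69 times as high as Kcnmb1 in eye and 96.0 times in retina. In the reference table Kcnmb1 overlaps Kcnip1, so reads of the pair may be shared.

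The 4 calcium-binding Kcnip genes, partners of the A-type channels, all had their lower value in eye: Kcnip1 (16.8 RPKM in eye and 22.3 in retina), Kcnip4 (11.1 and 15.9), Kcnip3 (8.49 and 15.8) and Kcnip2 (6.55 and 10.1) lay between 1.33-fold and 1.86-fold lower with intervals that exclude 1, and none was called. With equal summed values all 4 are called lower, as are 46 of the 67 members tested and 31.9% of all genes. The A-type pore Kcnd3, the highest of its subfamily, had 6.05 RPKM in eye and 11.7 in retina. Of 13 tested auxiliary genes, 3 were lower and 2 higher (23.1% and 15.4%, against 7.95% and 17.8% of all genes tested).

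Partners without a Kcn symbol were listed from known interactions. Of the 20 listed, 17 had a value and 14 were tested, of which 3 were lower in eye and 0 higher (7.95% and 17.8% of all genes tested were), with a median log2 fold of -0.36. Amigo1, a membrane protein of neurons, had 7.62 RPKM in eye and 18.7 in retina, 2.45-fold lower (interval 2.17 to 2.78). Dlg4, a scaffold that clusters Shaker channels, had 95.5 RPKM in eye and 224 in retina, 2.35-fold lower (interval 2.29 to 2.41). Cntnap1, of the axonal paranode, had 11.9 RPKM in eye and 25.2 in retina, 2.13-fold lower (interval 2.01 to 2.25).

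The other partners were not called. Dpp6, the peptidase-like partner of A-type channels, had 14.4 RPKM in eye and 23.7 in retina. Among the anchors of Kcnj10 in glial end-feet, Dmd had 16.9 RPKM in eye and 24.01 in retina, and Dag1 had 33.9 and 21.6. The scaffold Dlg1 had 19.2 RPKM in eye and 17.2 in retina, and Dlg2 had 9.79 and 15.4. The sulfonylurea receptor Abcc9, which pairs with Kcnj8, had 2.79 RPKM in eye and 1.45 in retina, 1.92-fold higher and short of the threshold, while Abcc8, which pairs with Kcnj11, had 2.12 and 2.73.

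**Figure D4:**
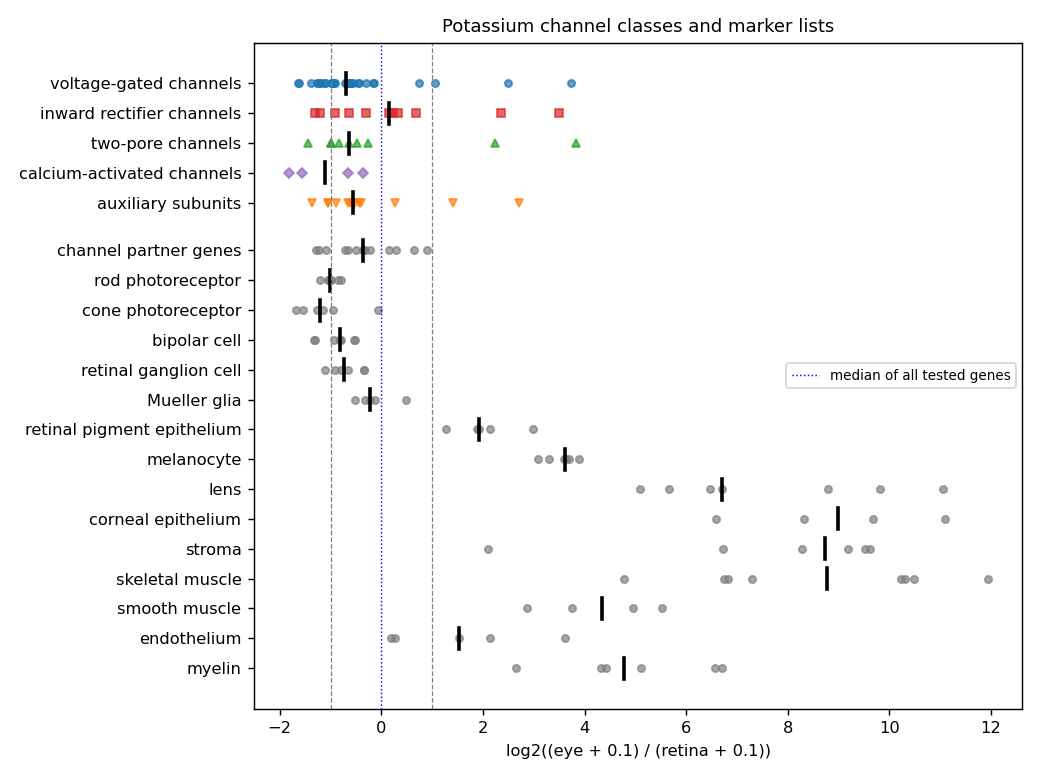
Log2 ratio of eye to retina, with 0.1 added to each value, for the tested members of each potassium channel class (coloured), the partner genes and the marker lists (grey); black bars are medians, dashed lines 2-fold and the dotted line the median of all genes. The other channel classes have medians between -1.11 and -0.55, the inward rectifiers 0.16 (below 0 with equal summed values), the rod list has -1.01, and the lists of lens, cornea, stroma and muscle lie far to the right.

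The threshold cut through a dense part of the distribution. Just inside on the lower side were Kcnv2, Kcnab2 and Kcnab3, at 2.00-fold, 2.07-fold and 2.09-fold. Just outside were Kcnk9, Kcnk12 and Kcnb2, whose deposited values differed by 2.06-fold, 2.09-fold and 2.05-fold, but whose fold fell short once 0.1 was added. Another 17 members that were not called were between 1.5-fold and 2-fold lower. On the higher side, Kcne4 (2.78-fold) was inside, and Kcns3 (1.73-fold) and Kcnj12 (1.62-fold) just outside. In either direction 27 members were called, and 25.8% of all genes tested. The interval of the fold excluded 1 for all 27, but also for most members not called. Over all tested members it lay above 1 for 14, below 1 for 47 and spanned 1 for 6. It lay wholly beyond 2-fold for 7 of the 9 higher and 12 of the 18 lower members. The shares of all genes with such intervals are not given here.

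The share of members called lower was above that of all genes under each setting tried except the fold of 4, at which 0 members were lower. With 1 added, 14 members were lower and 7 higher, where 4.94% of all genes were lower and 14.4% higher. With 0.01 added, 21 were lower and 9 higher (8.37% and 18.3% of all genes). At a minimum of 5 RPKM, 16 of the 34 members tested were lower and 1 higher (8.19% and 14.7%). Scaling both libraries to equal summed values made 46 members lower and 7 higher (31.9% and 11.5%), and leaving the lens list out of the sums made 32 lower and 8 higher (20.3% and 13.5%). Of the called members, 33.3% were higher in eye as reported, 13.2% with equal sums and 20.0% without the lens list, against 69.2%, 26.4% and 40.0% of all called genes. When all crystallins were left out as well, 21 were lower and 9 higher (8.58% and 17.4%). The trimmed mean of log ratios gave 18 and 9 (8.08% and 17.8%), the median of ratios 17 and 9 (7.79% and 18.0%), recovered reads 21 and 9 (8.14% and 18.0%), and dropping values of few decimals 18 and 9 (7.77% and 17.9%).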

How the data were processed

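RNA sequencing of pooled rat eye and retina was analysed from 1 file of values per tissue. Per the submitters' processing notes, GSNAP, HTSeq and the genome build rn4 were used. Not given in the sources used here were versions, settings, annotation and strand use. Deposited values were taken as RPKM, as made by the authors. The unit was inferred, since the values equal whole reads divided by a whole length and by 1 total per library. The totals were searched for, and the smallest whole reads that fit were found for 13760 of 13980 genes. A gene's real reads can be a whole multiple of these, which would narrow its counting interval, while PCR copies and the missing replicates are not covered by it. The search was tested on simulated data.

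There were 14533 rows in a file, 7 of them ND, and 41 names stood on more than 1 row, of which the row with most decimals was kept. The fold was log2((eye + 0.1) / (retina + 0.1)), among 13259 genes of at least 1 RPKM in either library. With 1 library per tissue no test was made. Named were all called members, the 5 highest of each class, classes of 10 or fewer, members near the threshold, and partners called or of at least 10 RPKM, and further members are given with their values. Some genes under this rule are not reported here by name, nor drawn as named points or bars, but stay in the counts, sums and medians. Members, lists and rules were chosen with earlier results of these data known. Overlaps and older symbols came from a reference table of GRCr8, whose coordinates were not used for the rn4 values. Python 3.11.15, SciPy 1.17.1 and pandas 2.3.3 were used.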

Additional observations from a re-analysis of the deposited data

How the results depend on the processing

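With 1 library per tissue, leaving out a replicate was not possible. No paired analysis was possible because 1 column of values was analysed per tissue. The 18 lower and 9 higher potassium channel genes became 14 and 7 with 1 added, 21 and 9 with 0.01 added or with recovered reads, 16 and 1 with a minimum of 5, and 0 and 7 at a fold of 4. They became 32 and 8 with equal summed values without the lens list (which moved the log2 ratio by -0.39) and 46 and 7 with equal summed values (-0.64), against 20.3% and 31.9% of all genes called lower. With all 11 crystallins left out too, a scaling chosen after seeing the data, they were 21 and 9. The trimmed mean of log ratios gave 18 and 9, the median of ratios 17 and 9.

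The median log2 fold was -0.52 with 1 added, -0.94 with a minimum of 5, -0.99 without the lens list and -1.23 with equal summed values. Relative to all genes it was -0.62 as reported, -0.51 with 1 added and -0.88 with a minimum of 5. By class, with 1 added 1 voltage-gated gene was higher. With 0.01 added, recovered reads or the crystallin scaling, 3 two-pore genes were lower. With no minimum, 1 partner gene was higher (Lrrc26). With a minimum of 5, the higher genes were 0 voltage-gated, 1 inward rectifier (Kcnj13), 0 two-pore and 0 auxiliary. At a fold of 4, 0 genes of any class or of the partners were lower, and 1 auxiliary gene was higher. Without the lens list, 16 voltage-gated, 5 two-pore, 5 auxiliary and 5 partner genes were lower. With equal summed values, 23 voltage-gated, 4 inward rectifier, 6 two-pore, 10 auxiliary and 6 partner genes were lower and 1 auxiliary gene was higher. No called member changed sign under any of them, but this was fixed in advance. A call needs a log2 fold of at least 1 in size, and the largest scaling shift was -0.64. An added value, a minimum or another fold threshold cannot reverse a sign.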

Other observations

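Of the 9 members higher in eye, 6 had under 1 RPKM in retina, and their retina values rested on 2 to 49 recovered reads. Kcnh6, Kcnt1 and Kcnn1, picked from the members with the lowest folds, were between 3.03-fold and 3.57-fold lower in eye. The rod genes of the marker list were between 1.73-fold and 2.32-fold lower and the cone genes between 1.05-fold and 3.20-fold lower. With 0.1 added, the median tested member was 1.55-fold lower, against 2.01-fold for the rod list and 2.32-fold for the cone list. The 29 members that overlap another protein-coding or long non-coding gene in the reference table include Kcnv2, which overlaps Pum3, and Kcnk15, which overlaps Rims4 (3.78 RPKM in eye and 8.01 in retina).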
